A study of Mus musculus with 7 samples.

Results

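The ULK1 kinase complex and the VPS34 lipid kinase complexes start autophagy, and their 10 subunit genes were followed here in sorted Pax7-GFP cells of mouse hind leg muscle after normocapnia or hypercapnia. The genes were taken by symbol from the deposited table, where each of the 10 matched 1 of its 23930 genes, with 5 in the ULK1 complex (Ulk1, Ulk2, Atg13, Rb1cc1 and Atg101) and 5 in the VPS34 complexes (Becn1, Atg14, Pik3c3, Pik3r4 and Uvrag). No filter on low values was applied, so all 10 were tested. Normocapnia (NC) was room air and had 3 libraries, NC1 to NC3. Hypercapnia (HC) was 10% CO2 and had 4, HC1 to HC4.

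All mice were inducible Pax7-GFP littermates, in which a Cre recombinase made from the Pax7 gene and switched on by tamoxifen removes a stop in front of a ZsGreen1 reporter. They were 12 weeks old at the start, received tamoxifen in both groups, spent 4 weeks in NC or HC and were collected at 16 weeks. The study's methods describe injection of cardiotoxin, a toxin that destroys myofibers, into leg muscles of both groups with collection 3 days later, whereas the labels do not mention injury. The title of the deposited table gives 40 hours instead, so what time after injury, if any, the libraries represent is not settled by these sources. The labels give the genotype as Inducible Pax7-GFP C57BL/6 for NC1, and the last number of the strain name rises sample by sample to C57BL/12, whereas their growth protocol names C57/B6 littermates for all samples. GFP marks cells in which Cre was active and their progeny, not cells that hold Pax7 at the time of the sort. Neither the sex of the animals nor the number of animals behind each library is given per sample, so p-values measure the spread between libraries.

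Macroautophagy delivers cytoplasm to the lysosome inside a double membrane. When nutrients or energy run short, the ULK1 complex is released from inhibition by mTORC1, can be activated by AMPK, and phosphorylates subunits of the VPS34 complex, which then makes phosphatidylinositol 3-phosphate (PI3P) on the forming membrane. ULK1 and ULK2 are the alternative kinases, ATG13 and ATG101 bind each other and connect the kinase to RB1CC1 (also called FIP200), the large scaffold. PIK3C3 is VPS34 itself, PIK3R4 (VPS15) is its regulatory subunit and BECN1 (Beclin 1) the platform shared by both VPS34 complexes, whereas ATG14 and UVRAG take the same place in complexes that act at the autophagosome and at endosomes. In muscle, satellite cells, the Pax7-expressing stem cells, use autophagy to keep quiescence and to meet the energy demand of activation.

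Sequences are shown for the kinase that has a primer pair in the study's list, to place its amplicon, and for the pairs of subunits that can replace each other, to compare their promoters. The pair of primers that the study designed against Ulk1 lies in the last exon (exon 28 of 28 of a transcript of 5213 bases), in its 3′ UTR on the minus strand, and encloses a product of 137 bases at chr5:110784954-110785090 of GRCm38.
Ulk1 forward: ttcctgtcagtctggctcct
Ulk1 reverse: tgaacagagccgtgacaaag
The panel that gave the values below uses its own amplicon, whose position is not given in the sources used here.

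RefSeq promoters (GRCm38.p6) were matched for 7 of the 10 subunits, all but Rb1cc1, Becn1 and Pik3c3. Windows from 60 bases before to 20 after the start are printed for the alternative kinases, Ulk1 at chr5:110810062-110810141 and Ulk2 at chr11:61855073-61855152, and for the alternative VPS34 subunits, Atg14 at chr14:47568415-47568494 and Uvrag at chr7:99141125-99141204. All 4 lie on the minus strand, and capitals mark a match to CACGTG extended by 1 base on one side, an E-box of the kind bound by TFEB and its relatives.
Ulk1: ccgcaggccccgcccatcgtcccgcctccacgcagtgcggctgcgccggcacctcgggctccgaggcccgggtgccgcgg
Ulk2: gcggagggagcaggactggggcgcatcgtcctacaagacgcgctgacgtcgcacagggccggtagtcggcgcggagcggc
Atg14: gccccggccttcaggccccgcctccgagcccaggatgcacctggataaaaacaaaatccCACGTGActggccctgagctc
Uvrag: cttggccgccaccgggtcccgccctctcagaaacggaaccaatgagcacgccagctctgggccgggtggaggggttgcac
Of the 7 subunits, only Atg14 held CACGTG in the 300 bases searched on both strands, against 7.15% of all 32851 promoters. The same site matches TCACGTG, which contains CACGTG and occurs in 3.77% of promoters, and none of the 7 held GTAAACA, a FOXO motif found in 3.65%. Median GC content was 61.7% for the 7 promoters and 52.7% for all. These matches describe letters in a window and do not show that a factor binds there.

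Values are in RPM, the reads of a gene after each library was brought to the same total, and because the panel copies 1 short amplicon per gene they compare a gene between libraries and not genes with each other. Totals ran from 14527445 to 23388710 reads, and each subunit had between 36 and 2786 reads in each library, well above a floor of 3 reads (0.128 to 0.207 RPM). Satellite cell markers summed to 3406 RPM in NC1, 977 in NC2, 529 in NC3 and 796 to 1504 in HC. Sdc4, which gave 781 RPM in NC2 and 441 in NC3, made up most of these low sums, and the other 9 markers summed to 2683, 196 and 87.5 RPM in NC1 to NC3 and to 367 to 1055 in HC, so NC2 and NC3 lay below every HC library. Pax7 itself was at 268, 8.25 and 4.34 RPM in NC1 to NC3 and at 20.1 to 79.5 in HC. Macrophage markers summed to 12228 to 35306 RPM in NC and to 19925 to 24840 in HC, so markers of another cell type were abundant in all 7 libraries. NC3 had the highest of these sums through Lyz2 alone (29108 RPM), and without Lyz2 the sums were 3874, 10399 and 6199 RPM in NC1 to NC3 and 5474 to 8112 in HC. Summed neutrophil (236 to 1469 RPM), lymphocyte (8.04 to 16.3), endothelial (45.0 to 500.0), fibro-adipogenic (935 to 2230), myofiber (131 to 2831) and red blood cell markers (0.214 to 15.7) were also measured, and no gene of these lists was at 0 in every library. NC3 had the lowest value of the 7 libraries for 48.9% of the 12504 genes averaging 1 RPM or more. The part of these differences in the results below was not tested, and in sorted bulk cells fewer cells of a type and less RNA per cell cannot be told apart.

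Differences are hypercapnia minus normocapnia on log2(RPM + 1) from limma, with p adjusted over all genes by Benjamini-Hochberg, and a gene is called at an unadjusted p under 0.05 with a fold above 1.5. None of the 10 subunits was called, against 4.75% of genes at 1 RPM or more and 2.57% of the whole table. The estimate was above 0 for 6 subunits and below 0 for 4, with a median of 0.13 beside 0.16 over all genes at 1 RPM or more. Becn1 and Atg14 had an unadjusted p under 0.05 and were also the only subunits whose groups did not overlap, 2 of 10 beside 7.72% of genes. Their unadjusted p stayed under 0.05 in 8 of 20 alternatives for Becn1 and in 10 of 20 for Atg14. For both it did not with a filter at 1 RPM, in edgeR or when only NC3 was left out. For Becn1 it also did not with median-of-ratios scaling (limma, unadjusted p = 0.188) or in DESeq2 (unadjusted p = 0.297). Becn1 lay higher in HC (beside 4.09% of genes) and Atg14 lower (beside 3.63%). After adjustment no gene of the table passed 0.05 with limma (1114 genes had an unadjusted p under 0.05) or with edgeR, and 29 did with DESeq2. Without NC3 the counts were 1 with limma (2 with median-of-ratios scaling), 0 with edgeR and 101 with DESeq2, and limma passed 8 without NC1.

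These estimates depended on NC3, which was the lowest library for 7 subunits and the highest for Ulk2 and Pik3c3, leaving Atg14 as the only one for which it was neither. Within HC the highest library was 1.10 to 2.56 times the lowest, and within NC 1.48 to 26.3 times (over genes at 1 RPM or more the medians were 1.62 and 2.93). Each subunit is therefore given with and without NC3. Without it, 5 subunits changed sign, 3 were above 0 and 7 below, and the median was −0.35 beside −0.07 over genes at 1 RPM or more. Ulk1 and Rb1cc1 were then called, both lower in HC, which is 2 of 10 beside 4.65% of genes (2.86% called lower, and 1.79% called higher beside 0 subunits). Groups then did not overlap for 4 subunits, Ulk1, Rb1cc1, Becn1 and Atg14, beside 16.1% of genes. Becn1 was higher (5.98% of genes) and the other three lower (10.1%).

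**Figure D1:**
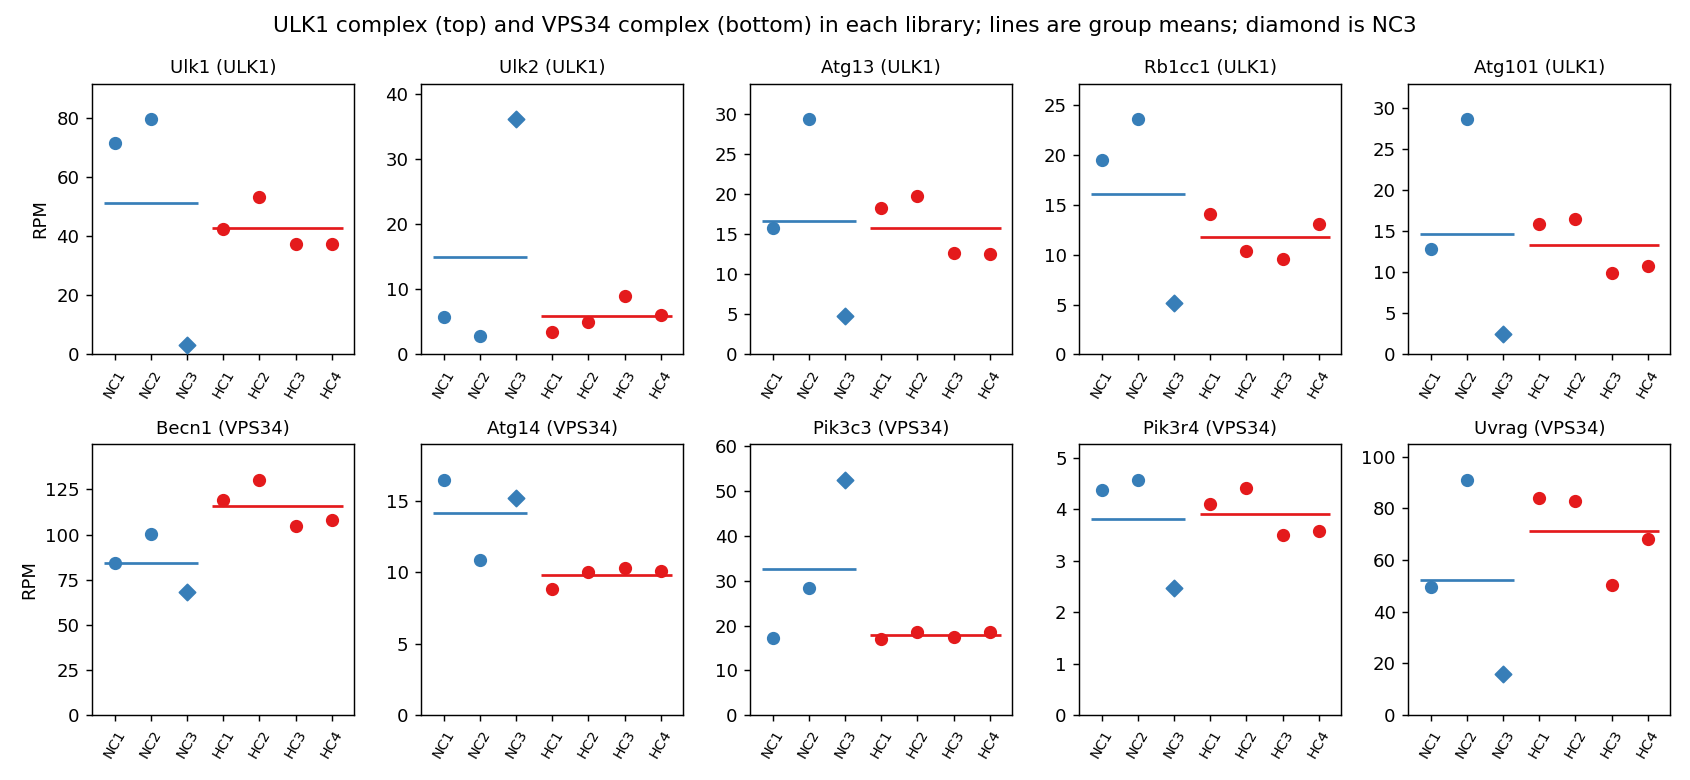
RPM of each subunit (vertical axes, linear from 0) in the 3 normocapnia (blue) and 4 hypercapnia (red) libraries, with group means as lines and NC3 as a diamond. NC3 is the lowest point for 7 subunits and the highest for Ulk2 and Pik3c3, while for Becn1 and Atg14 the groups do not overlap.

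Library values are listed in the order of their numbers, from NC1 and from HC1. Ulk1, the main initiating kinase, measured 71.4, 79.7 and 3.03 RPM under NC against 42.5, 53.3, 37.4 and 37.4 RPM under HC. The HC libraries lay close together, below NC1 and NC2 and above NC3, which was 12.3-fold below the lowest other library. Over all libraries the log2 difference was 0.59 ± 1.13 (SE, 95% interval −2.24 to 3.43, limma, adjusted p = 0.962). The mean RPM went the other way, 51.4 ± 42.1 in NC (SD, n = 3) and 42.6 ± 7.48 in HC (SD, n = 4), since the log scale gives the low value of NC3 more weight. Without NC3, Ulk1 fell by 0.82 on the log2 scale in HC (SE 0.17, interval −1.28 to −0.37, limma, adjusted p = 0.351), its HC mean being 56.4% of the mean of NC1 and NC2. The same comparison without NC3 gave −0.78 in edgeR and −0.75 in DESeq2, both called, and −0.74 with median-of-ratios scaling in limma, where it was not called. With all 7 libraries Ulk1 was at −0.18 and −0.21 in edgeR with and without a filter and at −0.21 in DESeq2. In limma it was at 1.26 without NC1 and 1.34 without NC2. None of these was called.

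Ulk2, the kinase that can stand in for ULK1, had its single high value where Ulk1 was lowest. It measured 5.71, 2.87 and 36.2 RPM under NC against 3.51, 4.92, 9.00 and 6.09 RPM under HC. NC3 was 4.02-fold above the highest other library, and the remaining values of both groups overlapped. The log2 difference was −0.58 ± 0.83 (SE, interval −2.65 to 1.49, limma, adjusted p = 0.924) and 0.37 ± 0.41 without NC3 (adjusted p = 0.989). Ulk2 was called lower in edgeR without a filter (−1.71), which included NC3, and in no fit that left NC3 out.

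Of the adaptor subunits, Atg13 measured 15.8, 29.4 and 4.75 RPM under NC against 18.3, 19.8, 12.7 and 12.5 RPM under HC. Its partner Atg101 followed it closely, at 12.8, 28.6 and 2.48 RPM in NC and 15.9, 16.5, 9.87 and 10.7 RPM in HC. For both, NC2 was highest, NC3 lowest, and all HC libraries lay between them. The log2 difference of Atg13 was 0.21 ± 0.59 (SE, interval −1.26 to 1.68, limma adjusted p = 1) and −0.45 ± 0.34 without NC3. That of Atg101 was 0.31 ± 0.75 (interval −1.56 to 2.18, limma adjusted p = 0.992) and −0.54 ± 0.40 without NC3. Neither was called either way.

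Rb1cc1, the scaffold of the complex, measured 19.5, 23.6 and 5.16 RPM under NC against 14.1, 10.4, 9.62 and 13.1 RPM under HC. As for Ulk1, all HC values lay below NC1 and NC2 and above NC3. The log2 difference was −0.20 ± 0.52 (SE, interval −1.499 to 1.09, limma, adjusted p = 0.998). Without NC3 Rb1cc1 fell by 0.83 in HC (SE 0.19, interval −1.33 to −0.32, limma, adjusted p = 0.396), to 54.7% of the mean of NC1 and NC2. With NC1 or NC2 left out instead, Rb1cc1 was above 0 (0.04 and 0.17). It remained called without NC3 in edgeR (−0.84), DESeq2 (−0.81) and under median-of-ratios scaling (−0.75). Some markers were also lower in HC without NC3. All 5 measured myofiber markers were lower (median −1.55), and only Acta1 was called (−1.61). It measured 402.3, 251.0 and 4.75 RPM in NC and 76.5 to 150.5 RPM in HC. Acta1 had NC1 and NC2 above and NC3 below every HC library, as for Ulk1 and Rb1cc1. The other myofiber markers (Myh4, Myh1, Ckm and Tnnt3) did not have this order, as NC2 lay within their HC range. The satellite marker Sdc4 was also called lower (−0.77), the only one called of 10 satellite markers, whose median was −0.20 without NC3. Of these, Myod1 (0.64), Chrna1 (0.56) and Itga7 (0.14) were higher in HC and the rest lower. NC1 had the highest satellite marker sum. The part of these in the calls was not tested.

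In the VPS34 complexes, Becn1 in RPM was higher in every HC library than in any NC library. It measured 84.4, 100.6 and 68.1 RPM under NC (mean 84.4 ± 16.2, SD, n = 3) against 119.2, 130.3, 104.7 and 107.8 RPM under HC (mean 115.5 ± 11.7, SD, n = 4). The groups did not overlap in RPM, though NC2 lay just under HC3. The log2 difference was 0.46 ± 0.15 (SE, interval 0.08 to 0.84, limma, adjusted p = 0.915). This 1.38-fold difference stayed under the fold threshold, and the log2 difference was 0.32 ± 0.12 without NC3 (adjusted p = 0.756). Median-of-ratios scaling divides RPM by a factor, 0.974 for NC2, 0.686 for NC3, 1.11 for HC3 and 1.12 for HC4. After it NC2 and NC3 lay above HC3 and HC4, so the groups overlapped. Becn1 then differed by 0.32 ± 0.21 (SE, limma, unadjusted p = 0.188). Beside it, the macrophage marker Adgre1 (F4/80) was the 1 gene called of 10 macrophage markers, higher in HC, with 109.0, 149.0 and 70.5 RPM under NC against 392.2, 429.1, 151.4 and 183.8 RPM under HC. HC2 and HC1 held the highest values of both genes and NC3 the lowest. Of the 10 markers 6 were higher in HC and 4 lower (median 0.15), among them Lyz2 (−0.01) and Csf1r (−0.14). Without NC3 Adgre1 was not called at 1.03 ± 0.55 (SE), though its groups still did not overlap, and Cd68 was called higher (0.90). The median of the 10 markers was then 0.09, with Cd14 (−0.51), C1qb (−0.36), Csf1r (−0.15), Itgam (−0.08) and Cd163 (−0.05) lower. The part of macrophage RNA in the Becn1 difference was not tested.

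Atg14, which directs VPS34 to autophagosome formation, was lower in every HC library than in any NC library. It measured 16.5, 10.9 and 15.2 RPM under NC (mean 14.2 ± 2.96, SD, n = 3) against 8.86, 10.0, 10.3 and 10.1 RPM under HC (mean 9.81 ± 0.65, SD, n = 4). Here NC3 lay among the other NC libraries, and the gap between the groups was that between NC2 and HC3. These 2 values rest on 254 and 165 reads, and counting error was not set against this narrow gap. The log2 difference was −0.47 ± 0.15 (SE, interval −0.84 to −0.11, limma, adjusted p = 0.915), 1.39-fold lower and so under the fold threshold, and −0.42 ± 0.17 without NC3 (adjusted p = 0.810). Atg14 was called lower with median-of-ratios scaling (−0.61) and in DESeq2 (−0.71), and both Atg14 and Becn1 were called without NC2 (−0.64 and 0.60).

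**Figure D2:**
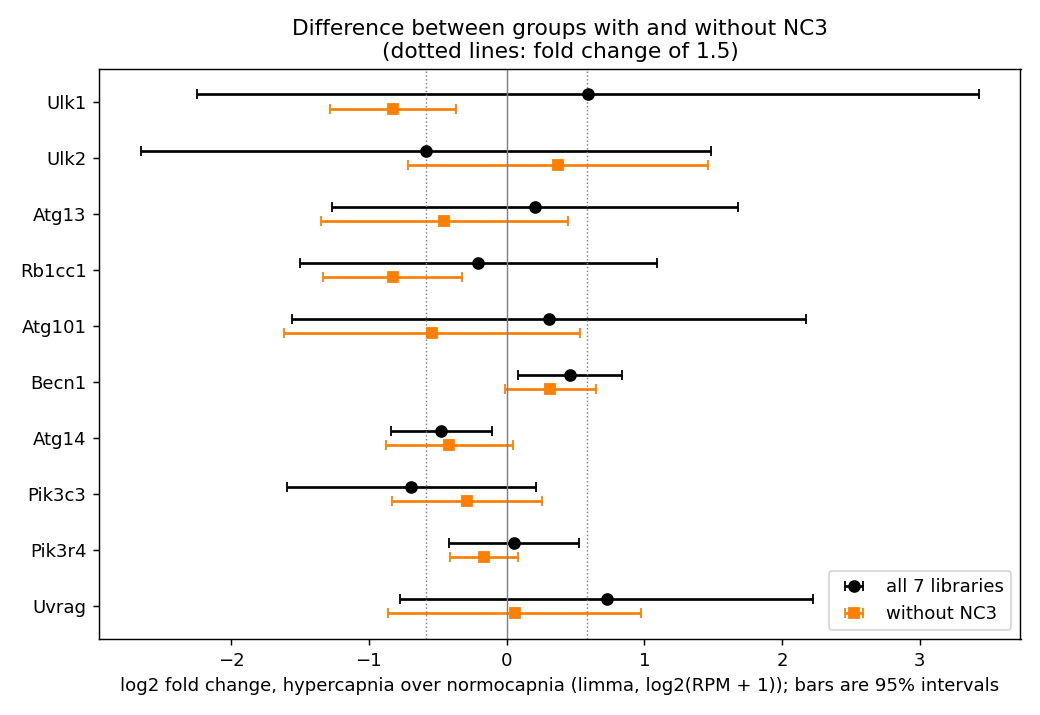
Log2 difference, hypercapnia minus normocapnia, of the 10 subunits with 95% intervals from limma, over all 7 libraries and without NC3. Over all libraries only the intervals of Becn1 (0.08 to 0.84) and Atg14 (−0.84 to −0.11) leave out 0, and without NC3 only those of Ulk1 and Rb1cc1.

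The catalytic subunit Pik3c3 measured 17.1, 28.3 and 52.5 RPM under NC against 17.0, 18.6, 17.4 and 18.6 RPM under HC. Its HC values spanned 1.10-fold, the narrowest range of the 10 subunits, while NC1 lay within them and NC3 was 1.86-fold above the next library. The log2 difference was −0.69 ± 0.36 (SE, interval −1.60 to 0.21, limma, adjusted p = 0.915) and −0.29 ± 0.21 without NC3. It was called lower in edgeR with a filter (−1.15) and without one (−1.10), in DESeq2 (−1.20) and in limma without NC1 (−1.07), but in no fit that left out NC3.

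Pik3r4, the regulatory partner of VPS34, measured 4.37, 4.58 and 2.48 RPM under NC against 4.11, 4.42, 3.50 and 3.59 RPM under HC. It had 36 to 107 reads per library, and the groups overlapped throughout. The log2 difference was 0.06 ± 0.19 (SE, interval −0.42 to 0.53, limma adjusted p = 1), and −0.16 ± 0.09 without NC3.

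Uvrag, the endosomal alternative to Atg14, measured 49.4, 91.1 and 16.0 RPM under NC against 84.0, 82.9, 50.5 and 68.0 RPM under HC. NC2 was highest and NC3 lowest, with NC1 just under the lowest HC library. Its log2 difference of 0.73 ± 0.60 (SE, interval −0.77 to 2.23, limma adjusted p = 0.915) was 0.06 ± 0.35 without NC3 and 1.28 ± 0.51 without NC2, and it was called in neither.

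The HC libraries also differed among themselves in a repeated order. HC1 and HC2 both lay above HC3 and HC4 for 6 subunits (Ulk1, Atg13, Atg101, Becn1, Pik3r4 and Uvrag), beside 23.6% of genes at 1 RPM or more, and both lay below them for Ulk2 and Atg14, beside 44.5%. The summed markers of 7 of the 8 cell type lists were lower in HC1 and HC2 than in HC3 and HC4, among them endothelial markers (58.6 and 45.0 RPM, then 500.0 and 384.0). For fibro-adipogenic markers this order rested on Dcn (846 and 766, then 775 and 875 without it), and lymphocyte markers barely differed (13.4 and 12.6, then 13.6 and 13.4). Satellite markers (838 and 796, then 1504 and 1303) and myofiber markers (455 and 268, then 819 and 1531) followed the same order, and macrophage markers the reverse (24840 and 21418, then 19925 and 20722). Their part in this order was not tested.

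Subunits that take the same place were set against each other as log2 ratios of RPM + 1, in which a fixed amplicon efficiency cancels between libraries. The ratio of Ulk1 to Ulk2 was 3.43, 4.38 and −3.21 under NC against 3.27, 3.20, 1.94 and 2.44 under HC. NC3 lay below all other libraries, which ranged from 1.94 to 4.38. The means, 1.54 ± 4.14 in NC and 2.71 ± 0.64 in HC (SD), differed by 1.17 (exact permutation test over 35 splits, two-sided, p = 0.857, adjusted p = 0.857 over 2 ratios, where the smallest p possible is 0.0286). Without NC3 the difference was −1.20 (exact p = 0.133 over 15 splits), with all 4 HC ratios below both NC ratios.

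The ratio of Atg14 to Uvrag was −1.53, −2.96 and −0.07 under NC against −3.11, −2.93, −2.19 and −2.64 under HC. NC2 lay among the HC libraries, while NC1 and NC3 were above all of them. The means were −1.52 ± 1.45 and −2.72 ± 0.40 (SD), a difference of −1.20 (exact permutation p = 0.2, adjusted p = 0.4) that was −0.47 without NC3 and −1.92 without NC2 (exact p = 0.0667, the smallest that 15 splits allow). For the ratio of Atg14 to Becn1, which was chosen with its values known and has no test, the libraries read −2.29, −3.10 and −2.09 in NC and −3.61, −3.58, −3.22 and −3.29 in HC. The difference was −0.93, or −0.73 without NC3, and that the groups did not overlap follows from the values of the genes themselves. The other ratios computed without a test had overlapping groups, Rb1cc1 to Atg13 with a difference of −0.41 (−0.38 without NC3) and Pik3c3 to Pik3r4 with −0.75 (−0.12 without NC3).

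**Figure D3:**
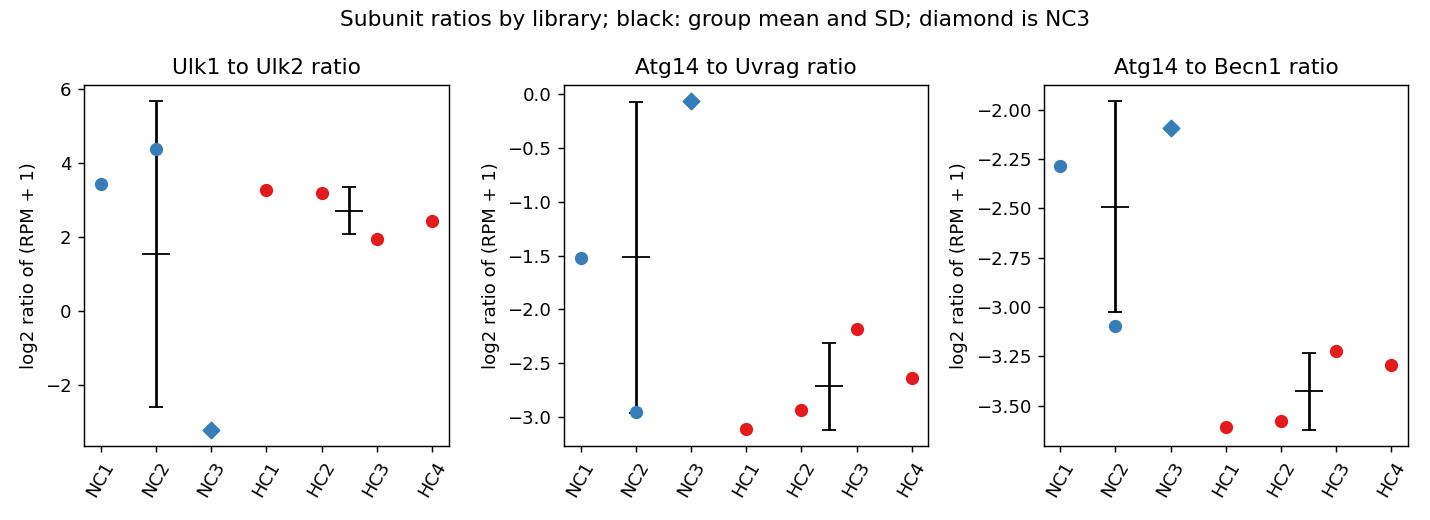
Log2 ratio of RPM + 1 between subunits in each library (normocapnia blue, hypercapnia red, NC3 as a diamond), with the group mean and SD in black. NC3 is the only library with a negative Ulk1 to Ulk2 ratio (−3.21), and in the Atg14 to Uvrag ratio NC2 lies among the hypercapnia libraries. That Atg14 to Becn1 is lower in all 4 hypercapnia libraries is fixed by the choice of these genes.

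Across the 7 libraries, which share the same depth scaling and the same outlying NC3, 13 of the 45 pairs of subunits had a Pearson correlation of log2(RPM + 1) beyond 0.9 in size, and 14 pairs changed sign without NC3. The pair Atg13 and Atg101, whose proteins bind each other, had r = 0.998 over 7 libraries and 0.994 over the 6 without NC3. Becn1 and Atg14, which sit in one complex, ran in opposite directions at r = −0.87 and −0.85 without NC3. For Ulk1 and Ulk2 the value was −0.94 with NC3 and −0.57 without it, and for Ulk1 and Becn1 it turned from 0.66 to −0.47. These correlations are descriptions of a few libraries.

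**Figure D4:**
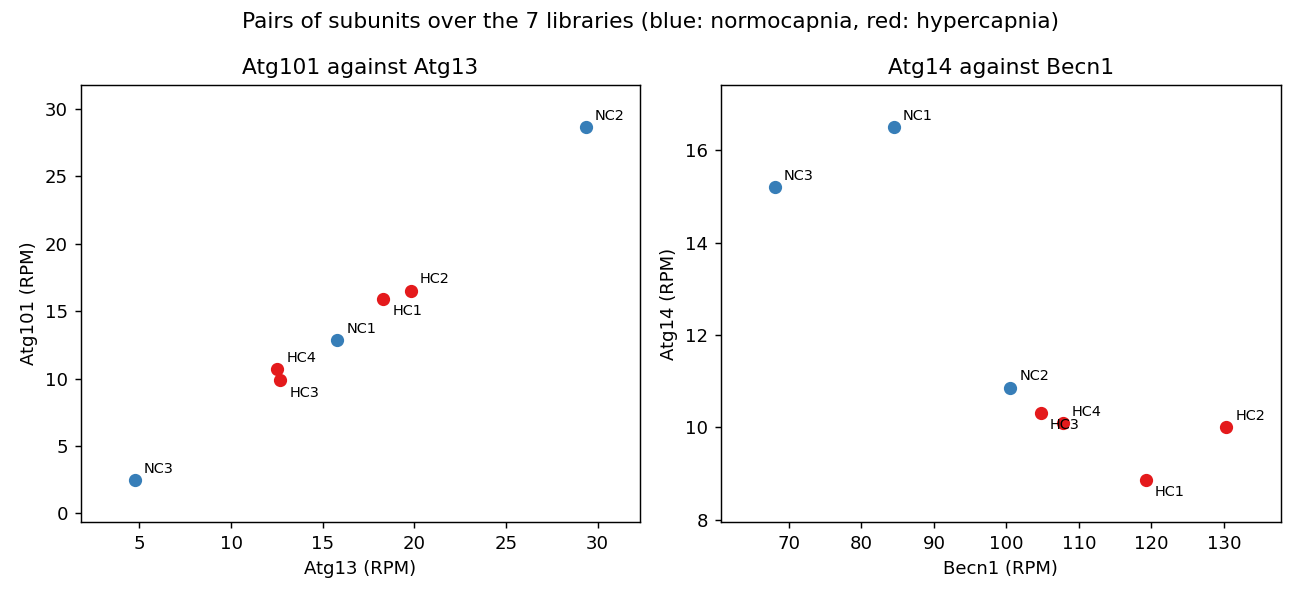
RPM of Atg101 against Atg13 (left) and of Atg14 against Becn1 (right), 1 point per library, normocapnia in blue and hypercapnia in red. The points of the left panel run along a line from NC3 (lowest) to NC2 (highest), while in the right panel the hypercapnia libraries gather at high Becn1 and low Atg14.

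For the subunit with the smallest p in each complex, the genes with the most similar pattern over the 7 libraries were looked up among genes averaging 10 RPM or more. For Ulk2 they were Surf2 (r = 0.985), Camk2d (0.983) and Phax (0.983) of 8229 genes, each with its highest value in NC3, as Surf2 with 111.9 RPM beside 43.6 to 59.0 RPM in the others. For Atg14 they were Zfp282 (r = 0.991), Crkl (0.982) and Scarna13 (0.978) of 8228 genes. Their log2 differences, −0.55, −0.61 and −0.97, describe genes picked for following Atg14 over the same libraries, so their direction was set by that choice. Crkl, an adaptor of receptor signaling, measured 33.6, 21.0 and 31.5 RPM in NC and 16.9, 16.8, 20.5 and 18.4 RPM in HC.

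The genes around the complexes were taken as 9 lists of 71 genes, of which 64 were in the table (Nrbf2, Rubcnl, Tmem41b, Prkag1, Atg4a, Map1lc3b and Gabarapl2 were not matched). The estimate was higher in HC for 28 and lower for 36, with a median of −0.05 (−0.13 without NC3), and 3 were called (4.69%, beside 2.57% of the whole table and 4.75% of genes at 1 RPM or more). Of these, 2 were higher (beside 2.66% of genes at 1 RPM or more) and 1 lower (beside 2.1%), although the 64 genes were not filtered and Slamf1 averaged less than 1 RPM. Gabarap, an ATG8 protein that is coupled to the autophagosome membrane and binds ULK1, was the gene among them with the smallest p. It measured 1417, 1389 and 1468 RPM under NC against 2424, 2387, 1919 and 2373 RPM under HC. Here NC3 was close to the other NC libraries and the groups did not overlap, and Gabarap rose by 0.67 ± 0.09 (SE, limma, adjusted p = 0.492), or 0.69 without NC3. Its relative Gabarapl1 was at 26.1 to 32.5 RPM in NC and 21.5 to 34.7 RPM in HC (−0.09 ± 0.20).

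Among the 11 partners of VPS34 and Beclin 1 that were measured, 5 were higher and 6 lower, with 1 called each way (median −0.01, −0.15 without NC3). Gorasp2, a Golgi stacking protein that helps assemble VPS34 with UVRAG, fell by 0.92 ± 0.35 (SE, limma, adjusted p = 0.915). It measured 102.5, 88.9 and 225.8 RPM under NC against 60.8, 58.9, 80.0 and 68.6 RPM under HC. The groups did not overlap, with or without NC3, the highest library. Without NC3 the difference was −0.51 ± 0.15 (SE, limma, unadjusted p = 0.023), not called because it stayed under the fold threshold. Slamf1, a receptor of immune cells that binds Beclin 1, was called higher (0.61 ± 0.18, limma, adjusted p = 0.909) at 0.086 to 0.312 RPM in NC and 0.553 to 1.42 RPM in HC, where the NC values are near the floor of 3 reads, and it was not called without NC3 (0.59). Mcl1, an anti-apoptotic protein that can hold Beclin 1, and Sh3glb1, a membrane-bending partner of UVRAG, were at −0.26 ± 0.46 and −0.01 ± 0.48, and neither was called.

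Upstream of ULK1, none of the 8 measured AMPK genes was called (4 higher, 4 lower, median 0.02, −0.09 without NC3), among them its activating kinases Stk11 (0.06 ± 0.22) and Camkk2 (0.10 ± 0.30). None of the 8 genes of mTORC1 and its regulators was called either (4 higher, 4 lower, median −0.06, −0.25 without NC3), with the activator Rheb at −0.27 ± 0.32 and the scaffold Rptor at −0.17 ± 0.09. The mTOR inhibitor Deptor was not called over all libraries (−0.69 ± 0.34, adjusted p = 0.915) and fell by 1.06 without NC3 (limma, adjusted p = 0.338), with 67.8, 58.0 and 28.6 RPM under NC against 22.8, 29.8, 37.5 and 29.9 RPM under HC. As for Ulk1 and Rb1cc1, NC1 and NC2 lay above all HC libraries.

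Downstream, none of the 9 genes of the ATG9 vesicle and PI3P effector list was called (4 higher, 5 lower, median −0.10, −0.26 without NC3), among them the PI3P-binding proteins Wdr45b (−0.10 ± 0.14) and Wipi2 (0.42 ± 0.42). The 6 PI3P phosphatases split evenly, 3 higher and 3 lower (median −0.03, −0.19 without NC3), with Mtmr2 at −0.07 ± 0.29 and Mtmr6 at −0.33 ± 0.24. Of the 10 conjugation genes measured, 4 were higher and 6 lower (median −0.09, −0.01 without NC3), and the E1-like enzyme Atg7 was not called at 0.60 ± 0.28 (limma, adjusted p = 0.915), nor was Atg16l1 at −0.02 ± 0.14. Of the 3 ATG8 genes, Map1lc3a was not called over all libraries (−0.36 ± 0.56, adjusted p = 0.937) and fell by 1.05 without NC3 (limma, adjusted p = 0.255), with 9.72, 8.77 and 1.45 RPM under NC against 3.51, 3.37, 4.81 and 4.27 RPM under HC. Gabarap was thus higher and Map1lc3a lower in the fit without NC3.

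The remaining lists held no called gene. Of the 3 related kinases outside the complex, 2 were higher and 1 lower (median 0.19, −0.09 without NC3), with Ulk3 at 0.54 ± 0.55 and Ulk4 at −0.16 ± 0.35. Among the 6 transcription factors of autophagy genes, 1 was higher and 5 lower, with a median of −0.45 that was −0.19 without NC3. Of these, Mitf was at 33.8, 73.5 and 177.3 RPM in NC1 to NC3 and 39.4 to 63.7 RPM in HC (−0.60 ± 0.57), and Tfeb differed by −0.38 ± 0.31. NC3 held the highest value of both.

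**Figure D5:**
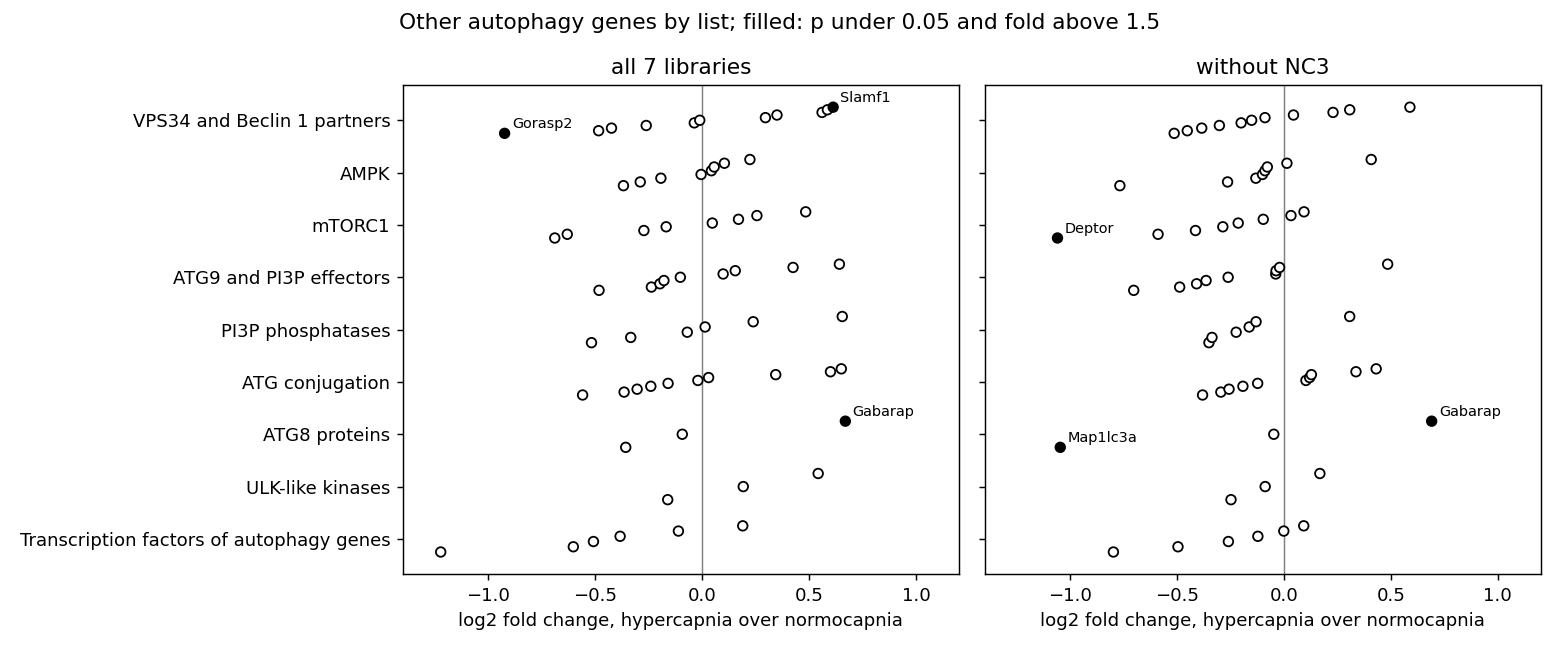
Log2 difference, hypercapnia minus normocapnia (limma, log2(RPM + 1)), of the 64 measured genes in the 9 surrounding lists, 1 point per gene, over all libraries (left) and without NC3 (right), with called genes filled. Gorasp2, Slamf1 and Gabarap are filled on the left and Deptor, Map1lc3a and Gabarap on the right, and the leftmost open point is the transcription factor Foxo1 (−1.22).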

How the data were processed

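RNA of FACS-sorted Pax7-GFP+ cells was measured in 7 libraries, grouped by the treatment in the labels. Per the labels and methods, the authors made Ion AmpliSeq Transcriptome Mouse libraries on an Ion Chef, sequenced them on an Ion GeneStudio S5 Plus and deposited RPM per gene. The submitters' processing notes name the Transcriptome Analysis Console, and no aligner or genome build is named in the sources used here. RPM were whole multiples of 1 read (0.0428 to 0.0688 RPM) within 0.05 reads for 100% of values, so whole reads were recovered for count tests (right in 3 of 3 simulated libraries). Depth intervals and floors cover counting error only.

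limma 3.58.1 in R 4.3.3 was fitted to log2(RPM + 1) of all 23930 genes, unfiltered, a scale that understates changes of low genes. Calls used the study's thresholds (unadjusted p under 0.05, fold above 1.5), with Benjamini-Hochberg adjustment beside them. Only the limma fit was also run on simulated libraries with known changes, and its outcome is not given here. Alternatives were quantile or median-of-ratios normalization, pseudocounts of 0.1 and 5 RPM, only genes averaging 1 RPM or more, a trended prior, DESeq2 1.42.0 and edgeR 4.0.16 (TMM, quasi-likelihood, filtered and unfiltered) on whole reads, each library left out, and the replicate number as a block. The fits of other tools without NC3 were chosen after seeing the data. The members and lists were chosen with earlier results of these data known. Named genes were all members, the called and the 2 genes with the highest mean RPM of each list, and the 3 genes most like the member with the smallest p of each complex, while Deptor, Map1lc3a, Foxo1, Adgre1, other named markers and the ratio of Atg14 to Becn1 were named after their values were seen. Ratios were tested by exact permutation, two-sided. Sequences came from RefSeq (GRCm38.p6) and the study's primer list.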

Additional observations from a re-analysis of the deposited data

How the results depend on the processing

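Calls rest on 3 NC libraries that differ widely, and leaving out NC3 turned the sign of 5 subunits, against at most 4 for any scaling or tool run with all libraries. Becn1, Atg14, Pik3c3 and Uvrag kept their direction in all 20 alternatives run. Genes called numbered 615 (343 higher, 272 lower), 802 in edgeR with a filter (294 higher, 508 lower), 1049 in edgeR without one, 1304 in DESeq2, 1113 in DESeq2 without NC3, and 376 to 1990 with 1 library left out. The lowest counts came without HC2 (376) and HC1 (385), and the highest without NC1 (1990) and NC2 (1205). Subunits called numbered 0 (beside 615 of 23930 genes), with these exceptions. Median-of-ratios scaling called 1 (Atg14, beside 612 of 23930 genes), and edgeR with a filter called 1 (Pik3c3, beside 802 of 13293). In edgeR without a filter 2 were called (Ulk2 at −1.71, and Pik3c3, beside 1049 of 21487). DESeq2 called 2 (Atg14 and Pik3c3, beside 1304 of 20858). With 1 library left out 0 to 2 were called, beside 376 to 1990 of 23930 genes. With NC3 left out, edgeR called 2 (beside 698 of 14149 genes) and DESeq2 called 2 (beside 1113 of 21020). In that setting limma with median-of-ratios scaling called 1 (beside 534 of 23930). Genes of the surrounding lists called numbered 3, but 1 with median-of-ratios scaling, 5 in DESeq2, 5 with the replicate block, and 1 to 9 with 1 library left out, where 9 were called without NC1, 7 without NC2 and 1 without HC4. Median-of-ratios scaling moved the median log2 difference of all genes at 1 RPM or more from 0.16 to 0.04 and quantile normalization moved it to −0.01.

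Several subunits turned sign with the setting, and the cause was not tested. Ulk1 was −0.18 in edgeR with a filter, −0.21 without one and −0.21 in DESeq2. Atg13 was −0.051 with quantile normalization, −0.0745 and −0.086 in edgeR with and without a filter, and −0.10 in DESeq2. Atg101 was −0.13 and −0.15 in edgeR and −0.15 in DESeq2. Pik3r4 was −0.0478 with median-of-ratios scaling, −0.35 with quantile normalization, −0.0176 and −0.0127 in edgeR and −0.0556 in DESeq2. With 1 library left out, Ulk1 ranged from −0.82 to 1.34, Ulk2 from −1.26 to 0.37, Atg13 from −0.45 to 0.75, Rb1cc1 from −0.83 to 0.17, Atg101 from −0.54 to 1.01, Pik3r4 from −0.16 to 0.18, Uvrag from 0.06 to 1.28, Becn1 from 0.32 to 0.60, Atg14 from −0.64 to −0.36 and Pik3c3 from −1.07 to −0.29. For Rb1cc1 the positive values came without NC1 (0.04) and without NC2 (0.17), and the sign of Ulk1, Ulk2, Atg13, Atg101 and Pik3r4 turned without NC3. With NC3 left out, the values from median-of-ratios scaling, then edgeR, then DESeq2 follow. Ulk1 was −0.74, −0.78 and −0.75, Ulk2 0.45, 0.52 and 0.56, Atg13 −0.37, −0.49 and −0.47, Atg101 −0.46, −0.64 and −0.62, and Pik3r4 −0.0941, −0.15 and −0.11. The difference in the ratio of Ulk1 to Ulk2 ranged from −1.20 without NC3 to 2.60 without NC2, and that of Atg14 to Uvrag from −1.92 without NC2 to −0.47 without NC3. With all libraries DESeq2 gave no p-value for Ulk2, so that fit has no value for it.

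Whether the replicate numbers pair the libraries is not settled, and HC4 has no partner. Deviations from the group mean correlated at −0.35, 0.50 and −0.04 between same-numbered libraries. Between libraries of other numbers they correlated at −0.42 to 0.45, and these few values cannot decide it. With the replicate block 598 genes and 0 subunits were called.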
